A study of Homo sapiens with 12 samples.

Results

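The genes described here are 10 members of the BCL2 family, followed in HK-2 cells, an immortalised epithelial line of human renal proximal tubular origin, after exposure to a compound that the labels call Aa. The list of members was drawn up by name, with earlier results of these data known: BCL2, BCL2L1, MCL1 and BCL2A1, which restrain apoptosis, and BIK, BCL2L11, BAD, BAK1, BID and BMF, which promote it. Probe sets annotated to exactly 1 of these genes numbered 31 of the 54675 on the array, and each of 19775 genes was represented by its brightest probe set (highest mean of the 12 arrays). Cells received a high dose of Aa for 24 h (3 samples), the vehicle for 24 h (3 samples), a high dose of Aa for 48 h (3 samples) or the vehicle for 48 h (3 samples), and the labels call the samples of a group biological replicates. All groups were the same unmodified line, seeded a day before treatment and treated near confluence in medium with insulin, hydrocortisone and epidermal growth factor. What Aa is and how much was applied were not stated in the descriptions used here, and 1 cell line stands for the tubule. Nothing says that the samples of a group came from separate passages, so p-values measure only the spread between these samples.

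Proteins of the BCL2 family decide whether the outer membrane of the mitochondrion is opened to release cytochrome c. BAK1 and BAX form the pores, BCL2, BCL2L1 (BCL-XL), MCL1, BCL2L2 (BCL-W) and BCL2A1 hold them in check, and the BH3-only proteins, among them BIK, BCL2L11 (BIM), BAD, BID, BMF, PMAIP1 (NOXA) and BBC3 (PUMA), bind the protective members or the pore formers. In the injured kidney, tubular cells are lost partly by this route. Much of its control acts on the proteins, by cleavage, phosphorylation and degradation, which arrays of RNA do not measure.

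Values are log2 expression as the authors' GCRMA processing gave them. A gene was tested where its value was over log2 4, a level just above background, on at least 3 of the 12 arrays. Correlations between arrays within a group were 0.994 to 0.997. All 6 epithelial markers (KRT7, KRT8, KRT18, KRT19, CDH1 and EPCAM) were over log2 4 on every array, with 3 lower at 24 h, and 2 higher and 3 lower at 48 h, in Aa cells. Of 8 markers of the proximal tubule, only SLC3A1 was over that level throughout, and it fell by 1.96 at 24 h (adjusted p = 0.00361) and 3.50 at 48 h (adjusted p = 4.3e-05). LRP2, CUBN, ANPEP, AQP1, SLC5A2 and SLC34A1 were under it on all arrays, and GGT1 was over it on 1. Of the markers of other cell types, 0 of 6 for leukocytes, 0 of 4 for endothelium and 2 of 4 for fibroblasts (DCN and LUM) were over the filter, and neither of the latter passed the test. RNA quality was read from ACTB and GAPDH control probe sets as the 3' signal minus the 5' signal on the log2 scale. It averaged 0.306 in control (0.246 to 0.355) and 0.394 in Aa cells (0.264 to 0.547) at 24 h, where the ranges overlapped. The 48 h averages were 0.319 in control (0.235 to 0.418) and 0.542 in Aa cells (0.431 to 0.68), where they did not. The part of RNA quality in the changes below was not tested. In bulk RNA, fewer surviving cells of a kind and less RNA per cell cannot be told apart.

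Across the family, transcripts of the protective genes BCL2 and MCL1 were lower and that of the BH3-only gene BIK was higher in Aa-treated cells at both times. BID, a BH3-only gene, was lower at 24 h. In all, 9 of the 10 members were tested, and BCL2A1 was not. At 24 h 4 of the 9 changed, where 49.1% of all 11184 genes tested changed. Of these members 1 rose, where 26.3% of all genes rose, and 3 fell, where 22.8% fell. At 48 h 3 of 9 changed, where 64.5% of all genes changed, with 1 upward (30.6% of all genes) and 2 downward (33.9%). The groups did not overlap in 5 of 9 members at 24 h and 4 of 9 at 48 h, where 59.8% and 69.1% of all genes did not. The shares of tested members called were thus 44.4% and 33.3%. With the replicate number as a block, 6 of 9 members (66.7%) were called at 24 h, where 61.5% of all genes were, and 4 of 9 (44.4%) at 48 h, where 73.3% were. Counts near or under these shares are no result about the family, and the members differed from each other in direction and size. Calls were made with limma at a Benjamini-Hochberg adjusted p under 0.05 over all genes tested. The main fit left out the replicate number, by which the samples were paired.

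**Figure D1:**
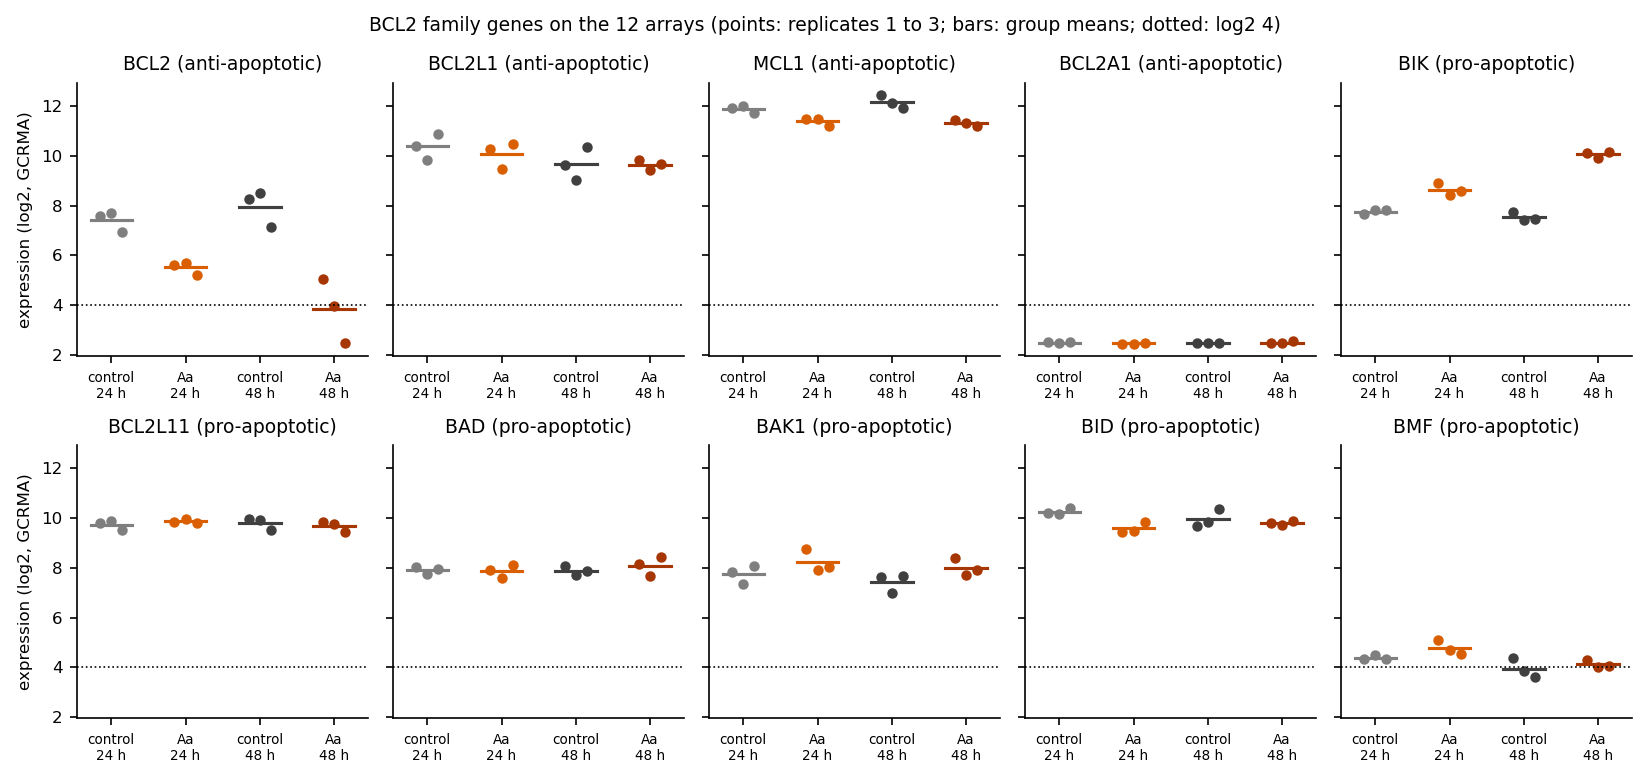
Expression (log2, GCRMA) of the 10 BCL2 family genes in control and Aa cells at 24 h and 48 h, with 1 point per array, bars at group means and a dotted line at log2 4. BCL2 and MCL1 points of Aa cells lie under all control points of the same time, BIK points lie over them, and BCL2A1 stays near 2.5 throughout.

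BCL2, the founding member, which holds pore formers and BH3-only proteins at the mitochondrion and the endoplasmic reticulum, had the largest fall. Its probe set 203685_at measured 7.60, 7.70 and 6.94 in control cells and 5.61, 5.71 and 5.22 in Aa cells at 24 h. At 48 h it measured 8.25, 8.51 and 7.12 in control cells and 5.05, 3.98 and 2.49 in Aa cells. The groups did not overlap at either time, and the lowest Aa array at 48 h was at the level of background. At 24 h BCL2 was lower by 3.74-fold (log2 change -1.90, SE 0.554, 95% interval -3.12 to -0.68, limma adjusted p = 0.0146). At 48 h it was at least 12.2-fold lower, with the 2 Aa arrays under log2 4 entered at log2 4 (adjusted p = 6.7e-05). The fitted change at 48 h exceeded that at 24 h by -2.22 (SE 0.783), which did not pass (adjusted p = 0.0683). In 17 of 22 alternatives it did not pass either, with adjusted p up to 0.16. It passed with the replicate number as a block (adjusted p = 0.00871) and without Aa replicate 1 at 48 h (adjusted p = 0.0157) or control replicate 3 at 48 h (adjusted p = 0.0358). With a floor at log2 4 it was -1.71 (adjusted p = 0.0463), and with the mean of probe sets -1.12 (adjusted p = 0.0469).

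A second BCL2 probe set, 207004_at, had nearly the same mean over the 12 arrays (6.13, against 6.18 for the one used) and did not show this fall. It measured 6.82, 6.22 and 5.72 in control and 5.80, 5.79 and 6.31 in Aa cells at 24 h, and 6.23, 6.20 and 6.46 in control and 5.23, 6.34 and 6.40 in Aa cells at 48 h. Groups overlapped at each time, with changes on the log2 scale of -0.29 at 24 h (adjusted p = 0.512) and -0.30 at 48 h (adjusted p = 0.454). The other 2 BCL2 probe sets were under log2 4 on all arrays. The fall of BCL2 therefore rests on 1 of 2 measured probe sets, and the transcripts read by each were not analysed here.

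The promoter of BCL2 is shown because this gene had the largest fall of the family, beside that of PMAIP1, which had the largest rise among its relatives (described further on). Both sequences run 5' to 3' on the gene's strand, from 250 bases before to 50 after the start site, in RefSeq's annotation of GRCh38.p14, and capitals mark the core of a cyclic AMP response element, TGACG or its reverse complement CGTCA, the letters read by ATF and CREB factors.
BCL2, chr18:63319720-63320019, minus strand: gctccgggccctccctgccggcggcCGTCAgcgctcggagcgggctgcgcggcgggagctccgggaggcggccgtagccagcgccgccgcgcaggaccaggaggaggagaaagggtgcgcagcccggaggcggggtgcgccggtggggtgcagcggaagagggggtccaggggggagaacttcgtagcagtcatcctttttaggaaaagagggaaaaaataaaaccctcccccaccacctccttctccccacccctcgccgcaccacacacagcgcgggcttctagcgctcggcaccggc
PMAIP1, chr18:59899746-59900045, plus strand: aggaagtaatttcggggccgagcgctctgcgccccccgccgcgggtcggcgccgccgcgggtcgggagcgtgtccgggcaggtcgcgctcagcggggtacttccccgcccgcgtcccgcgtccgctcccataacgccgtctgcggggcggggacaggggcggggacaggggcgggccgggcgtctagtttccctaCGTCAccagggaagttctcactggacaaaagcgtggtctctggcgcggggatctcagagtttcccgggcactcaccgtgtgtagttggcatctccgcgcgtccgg
Each window held 1 such match, first base at -225 from the start in BCL2 and at -55 in PMAIP1, and 24.6% of all 35116 promoters of this length held at least 1. The same core also occurred in windows of BCL2L1, BAD, BMF and BAX, and in none of BCL2A1, BCL2L11, BAK1 and BID. It is thus no mark of the 2 genes shown. The GC box GGGCGG, searched on both strands as well, occurred 4 times in the PMAIP1 window and in 45% of all promoters, and was not found in the BCL2 window. G and C made up 70.7% of the BCL2 window and 71.3% of the PMAIP1 window, against a median of 58.7% over all promoters. These matches describe letters and not bound sites. Of the 10 members, 8 had a promoter in the table; MCL1 and BIK had none.

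BCL2 was also the longest member. Its gene spans 197 kb in RefSeq's annotation, against 5.05 kb for MCL1, 19 kb for BIK and at most 59.5 kb (BCL2L1) for the others. Among all genes tested, the 1962 that span at least 100 kb had a median log2 change of -0.55 at 24 h and -1.02 at 48 h, and the 9214 shorter ones 0.10 and 0.09. At 48 h 71.2% of the long genes fell, and 25.9% of the shorter ones. BCL2's change of -1.90 at 24 h lay beyond the median of its own length class, and so did that of -3.61 at 48 h, computed with arrays under log2 4 entered at log2 4. The division at 100 kb was chosen with these values known, and the part of gene length in the fall of BCL2 was not tested.

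MCL1, a short-lived protective protein that binds BAK1, BIM and NOXA, was lower at both times by most of its probe sets. The probe set with the highest mean, 200797_s_at, measured 11.91, 12 and 11.74 in control and 11.47, 11.50 and 11.22 in Aa cells at 24 h. The 48 h values were 12.43, 12.12 and 11.92 in control and 11.45, 11.34 and 11.22 in Aa cells. All Aa arrays were under all control arrays of the same time. The log2 change was -0.48 at 24 h (SE 0.142, limma adjusted p = 0.0154), or 1.40-fold lower, and -0.82 at 48 h (SE 0.142, adjusted p = 0.000438), or 1.76-fold lower. The 24 h call was lost without control replicate 2 (adjusted p = 0.0585) or without Aa replicate 3 (adjusted p = 0.0606).

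Other MCL1 probe sets fell further. Probe set 200796_s_at measured 8.68, 8.63 and 8.97 in control and 7.25, 6.87 and 7.34 in Aa cells at 24 h, and 8.71, 8.48 and 8.95 in control and 6.98, 6.70 and 7.08 in Aa cells at 48 h. Its log2 changes were -1.61 (SE 0.172, adjusted p = 2.82e-05) and -1.80 (SE 0.172, adjusted p = 6.83e-06), and those of 200798_x_at were -1.28 and -1.48. Probe set 214056_at fell by 1.68 and 1.20. In all, 4 of the 5 tested MCL1 probe sets fell at each time, and the fifth, 214057_at, measured -0.13 at 24 h (adjusted p = 0.504) and -0.37 at 48 h (adjusted p = 0.0521) as its log2 change. The size of the MCL1 change thus depended on the probe set, while all 5 had the same sign at both times.

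BCL2L1, which encodes BCL-XL, did not pass at either time, and its replicates differed from each other by more than the treatments did. It measured 10.41, 9.83 and 10.89 in control and 10.27, 9.47 and 10.49 in Aa cells at 24 h, and 9.64, 9.01 and 10.37 in control and 9.82, 9.43 and 9.67 in Aa cells at 48 h. The log2 change was -0.30 at 24 h (95% interval -1.12 to 0.52, adjusted p = 0.539) and -0.03 at 48 h (95% interval -0.85 to 0.79, adjusted p = 0.949). Replicate 2 was the lowest array in each of the 4 groups. None of its 4 probe sets passed at either time.

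BCL2A1, a protective member best known from blood cells and induced by NF-kB, was near background on all 12 arrays. Its single probe set lay between 2.45 and 2.54, with group means of 2.49 (control) and 2.46 (Aa) at 24 h and 2.47 and 2.48 at 48 h. It was not tested, and no order can be read from these values.

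BIK, a BH3-only protein of the endoplasmic reticulum, was the only member that rose in the main fit, and it rose further with time. With the replicate block BAK1 at both times and BMF at 24 h passed upward too. BCL2L11 did so at 48 h with the mean of probe sets or the probe set of largest interquartile range. With hybridisation-control scaling BIK was again the only member that rose. BIK measured 7.65, 7.81 and 7.82 in control and 8.91, 8.43 and 8.60 in Aa cells at 24 h. The 48 h values were 7.73, 7.44 and 7.47 in control and 10.11, 9.93 and 10.15 in Aa cells. The groups were separate at both times, and at 48 h the gap between the highest control and the lowest Aa array was larger than the spread of either group. BIK rose 1.85-fold at 24 h (log2 change 0.89, SE 0.137, limma adjusted p = 0.000309) and 5.73-fold at 48 h (log2 change 2.52, SE 0.137, adjusted p = 1.1e-07). The change at 48 h exceeded that at 24 h by 1.63 (SE 0.193, 95% interval 1.21 to 2.06, adjusted p = 0.000893), where 19.5% of all genes differed between the times, 6.8% upward and 12.7% downward. BIK was the 1 of 9 tested members to do so in the main fit. With the replicate block 3 of 9 did (BIK and BID upward, BCL2 downward), where 38.6% of all genes did. In control cells BIK differed by -0.21 between the times (adjusted p = 0.446). BIK has a single probe set, so no second measurement on the array bears on it.

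**Figure D2:**
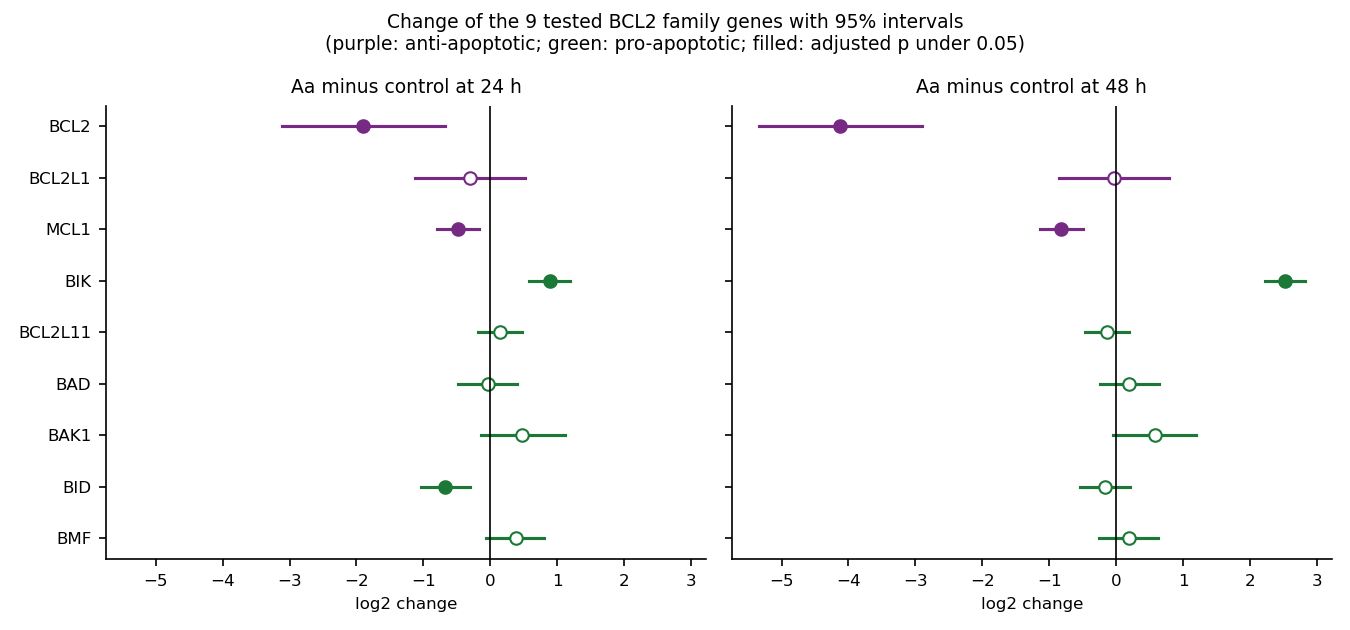
Log2 change, Aa minus control, of the 9 tested BCL2 family genes at 24 h (left) and 48 h (right), with 95% intervals from limma; filled points have an adjusted p under 0.05. BCL2 and MCL1 lie left of 0 and BIK right of 0 at both times, and the fall of BID is called only at 24 h.

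BID, the BH3-only protein that caspase 8 cleaves to carry a death receptor signal to mitochondria, was lower at 24 h. It measured 10.20, 10.15 and 10.41 in control and 9.43, 9.49 and 9.84 in Aa cells at 24 h, with no overlap. The 48 h values were 9.70, 9.85 and 10.35 in control and 9.80, 9.74 and 9.88 in Aa cells, which overlapped. BID was lower by 1.59-fold at 24 h (log2 change -0.67, SE 0.169, limma adjusted p = 0.00671), and its change at 48 h was -0.16 (adjusted p = 0.418). The difference between the times, 0.51 (SE 0.238), did not pass (adjusted p = 0.154), nor did it in 20 of 22 alternatives (adjusted p up to 0.397). It passed with the replicate block (adjusted p = 0.0243) and without control replicate 3 at 48 h (adjusted p = 0.0278). Control cells differed by -0.29 between the times (adjusted p = 0.408). Probe set 204493_at was called at both times, by -0.47 at 24 h (adjusted p = 0.0143) and -0.42 at 48 h (adjusted p = 0.0171). Probe set 227143_s_at was called at neither, with -0.26 (adjusted p = 0.0639) and -0.16 (adjusted p = 0.198). No return toward control at 48 h is therefore read from these values. Scaled to the hybridisation controls, BID also passed at 48 h (-0.60, adjusted p = 0.0102).

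BCL2L11 encodes BIM, a BH3-only protein that binds all the protective members. Its highest-mean probe set, 225606_at, measured 9.81, 9.87 and 9.51 in control and 9.84, 9.95 and 9.82 in Aa cells at 24 h, and 9.96, 9.94 and 9.53 in control and 9.83, 9.76 and 9.46 in Aa cells at 48 h. The groups overlapped at both times, and the log2 change was 0.14 at 24 h (adjusted p = 0.475) and -0.13 at 48 h (adjusted p = 0.481). Other probe sets of the gene rose at 48 h. Probe set 222343_at measured 5.23, 5.56 and 6.12 in control and 6.24, 6.53 and 6.82 in Aa cells (log2 change 0.89, adjusted p = 0.0182), and 1558143_a_at had a change of 0.34 (adjusted p = 0.0172). Of 6 tested BCL2L11 probe sets 0 passed at 24 h, and 2 rose and 4 did not pass at 48 h. With the mean of its probe sets in place of the brightest, BCL2L11 rose at 48 h (0.32, adjusted p = 0.0112). With hybridisation-control scaling the probe set used fell (-0.57, adjusted p = 0.0186). No direction is therefore given for BCL2L11 at 48 h.

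BAK1, which forms pores in the mitochondrial membrane, measured 7.83, 7.36 and 8.06 in control and 8.75, 7.90 and 8.04 in Aa cells at 24 h. At 48 h it measured 7.64, 6.97 and 7.66 in control and 8.38, 7.71 and 7.91 in Aa cells, where the groups did not overlap. Neither time passed, with a log2 change of 0.48 at 24 h (adjusted p = 0.183) and 0.58 at 48 h (adjusted p = 0.0968). With the replicate number as a block both passed (adjusted p = 0.0286 and 0.0107). Replicate 2 was the lowest array in every group. With hybridisation-control scaling they were 0.20 (adjusted p = 0.585) and 0.13 (adjusted p = 0.697).

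BAD, a BH3-only protein that growth factor kinases hold inactive on 14-3-3 proteins, lay between 7.60 and 8.42 on all arrays. Its log2 change was -0.04 at 24 h (95% interval -0.48 to 0.40, adjusted p = 0.887) and 0.20 at 48 h (95% interval -0.24 to 0.64, adjusted p = 0.396). BMF, a BH3-only protein linked to the cytoskeleton and to loss of attachment, was close to background. It measured 4.33, 4.49 and 4.34 in control and 5.09, 4.68 and 4.52 in Aa cells at 24 h, and between 3.61 and 4.37 on the 6 arrays of 48 h. The 24 h groups did not overlap, but the log2 change of 0.38 did not pass (adjusted p = 0.136; adjusted p = 0.0468 with the replicate block). At 48 h the change was 0.19 (adjusted p = 0.425).

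Set against each other, the 3 tested protective members had a median log2 change of -0.48 at 24 h and -0.82 at 48 h. Both are the changes of MCL1, which stood between BCL2 and BCL2L1 at each time. Over all 4, with BCL2A1 at background counted, the medians were -0.39 and -0.42. The 6 pro-apoptotic members had medians of 0.26 and 0.19, while the median over all genes tested was 0.02 and -0.03. Of the 3 tested protective members 2 fell and 0 rose at each time. Of the 6 pro-apoptotic members 1 rose and 1 fell at 24 h, and 1 rose and 0 fell at 48 h, against 26.3% of all genes up and 22.8% down at 24 h and 30.6% up and 33.9% down at 48 h. With so few members, these counts show no difference between the classes.

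Array by array, the median of the tested protective members, taken from the control mean of the same time, was -0.41, -0.90 and -0.66 in Aa cells and 0.03, 0.12 and -0.14 in control cells at 24 h. At 48 h it was -0.71, -0.81 and -0.93 in Aa cells and 0.28, -0.04 and -0.24 in control cells. The groups did not overlap at either time. A median of 3 genes is the value of 1 of them, and at 48 h this was MCL1 on every array. At 24 h the -0.90 of Aa replicate 2 came from BCL2L1 and the other Aa values from MCL1. The separation at 48 h is therefore that of MCL1 again, and no trait of the class. The pro-apoptotic median was 0.41, 0.19 and 0.16 in Aa cells and 0.01, -0.02 and 0.05 in control cells at 24 h. At 48 h it was 0.32, 0.01 and 0.31 in Aa cells and 0.20, -0.11 and -0.05 in control cells, so these groups overlapped. Hybridisation-control scaling shifts every array by its own controls, and lowers each change of Aa from control by 0.28 at 24 h and 0.44 at 48 h. With it the protective medians over all 4 members were -0.67 and -0.87 and the pro-apoptotic medians turned to -0.02 and -0.25. No p is given for these medians because the members were chosen with results known.

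Probe set by probe set, 8 of 25 tested member probe sets changed at 24 h (1 up, 7 down), where 46.5% of all probe sets tested did, and 9 of 25 at 48 h (3 up, 6 down), where 60.8% did. The 24 h count fell to 5 without control replicate 2. MCL1 and BID were the members in which more than 1 probe set was called in 1 direction at 24 h, and MCL1 and BCL2L11 were at 48 h.

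**Figure D3:**
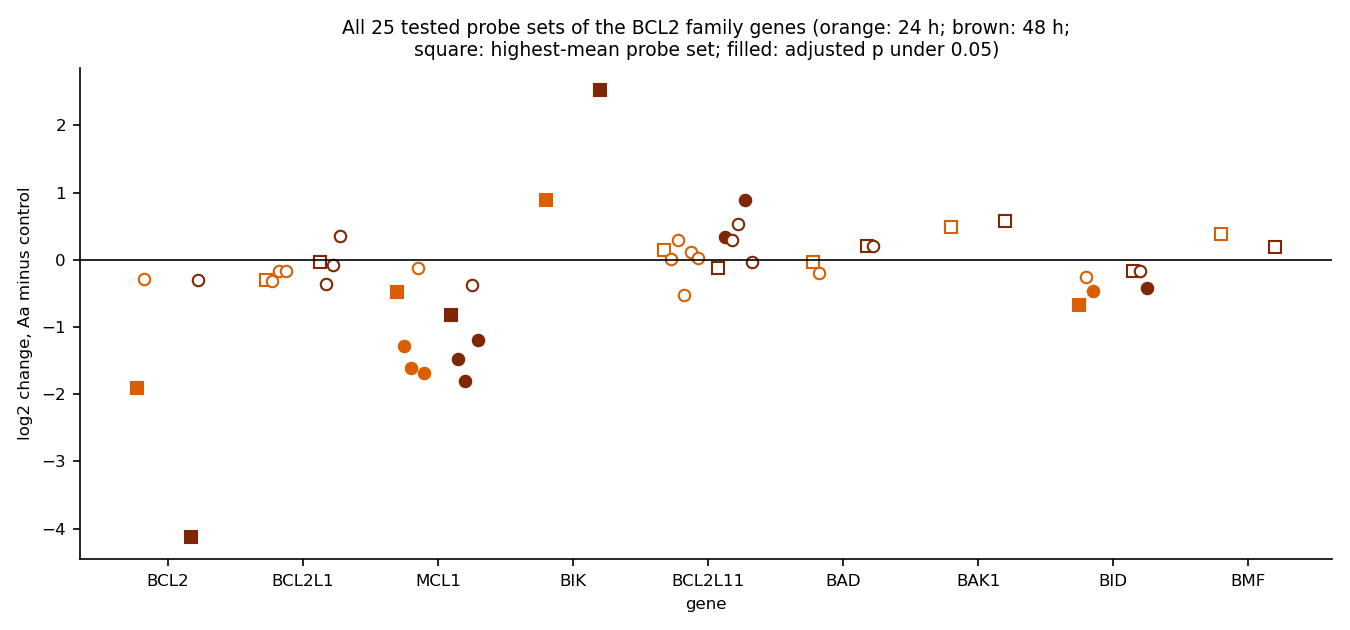
Log2 change, Aa minus control, of the 25 tested probe sets of BCL2 family genes at 24 h (orange) and 48 h (brown), with squares for the probe set of highest mean and filled symbols for an adjusted p under 0.05. MCL1 probe sets spread from -0.13 to -1.68 at 24 h, and the 2 BCL2 probe sets stand far apart at both times.

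Between the control groups, 48 h minus 24 h, 0 of 9 members passed by limma, with 1 (BMF, -0.44) at an unadjusted p under 0.05, and 0.635% of all genes passed (0.277% upward, 0.358% downward). Over all genes 22.6% had control groups that did not overlap, and 0.223% of all probe sets passed. With the replicate block 1 member passed, BCL2L1 with -0.70 (adjusted p = 0.0364).

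By a rule of likeness over the 12 arrays, the genes with the highest Pearson correlation to BCL2 were UBAC2 (r = 0.994), ZBTB20 (0.994) and TRIM24 (0.99), and those to BIK were CTRB2 (0.988), SLC25A25 (0.988) and DDX24 (0.988). Of 11183 genes, 311 had an r over 0.95 with BCL2 and 165 with BIK. These correlations share the treatment difference, and they describe the pattern and no relation between the genes.

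Among 16 further genes of the family, 15 were on the array by name and 12 were tested. At 24 h 2 rose and 2 fell, and at 48 h 4 rose and 6 fell, with a median log2 change of -0.12 at both times. The shares called were 33.3% at 24 h and 83.3% at 48 h, where 49.1% and 64.5% of all genes were called, and these shares over all genes hold for the lists that follow too. The 24 h count of 4 was 8 with hybridisation-control scaling or either other probe set rule. PMAIP1, which encodes NOXA, a BH3-only protein that binds MCL1 and drives its degradation, had the largest rise. It measured 9.67, 10.24 and 10.64 in control and 11.81, 12.02 and 11.96 in Aa cells at 24 h, and 9.58, 9.88 and 10.26 in control and 12.82, 13.02 and 13.13 in Aa cells at 48 h. The rise was 3.36-fold at 24 h (log2 change 1.75, SE 0.230, limma adjusted p = 0.000105) and 8.46-fold at 48 h (log2 change 3.08, SE 0.230, adjusted p = 9.9e-07), and the second probe set had the same sign.

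The pore former BAX measured 9.12, 9.15 and 9.19 in control and 9.46, 8.98 and 9.14 in Aa cells at 24 h, and 8.58, 8.5 and 8.95 in control and 9.37, 9.23 and 9.62 in Aa cells at 48 h. It did not pass at 24 h (0.04, adjusted p = 0.857) and rose 1.66-fold at 48 h (adjusted p = 0.00186), although not with hybridisation-control scaling (0.29, adjusted p = 0.173). Its difference between the times, 0.69, missed the threshold (adjusted p = 0.0518) and passed with the replicate block (adjusted p = 0.018), over all alternatives run from 0.018 to 0.272. Without Aa replicate 1 at 24 h, control replicate 3 at 48 h or Aa replicate 2 at 48 h it passed as well (adjusted p = 0.0213 to 0.0486). The same held with quantile normalisation (adjusted p = 0.0381) and with an intensity trend and robust variance (adjusted p = 0.0437). A filter at log2 5 (adjusted p = 0.0492) or a floor at log2 4 (adjusted p = 0.0491) also let it pass, and the other alternatives did not. BCL2L2, the protective BCL-W, was lower by 2.48-fold and 2.51-fold (adjusted p = 0.000278 and 0.00015). BOK, a relative of BAX and BAK1, had a change of -1.03 at 24 h (adjusted p = 0.0556) and fell by 1.57 at 48 h (adjusted p = 0.00574). BNIP3L, a mitophagy receptor, fell by 0.76 and 1.55 (adjusted p = 0.00083 and 2.92e-06), and BECN1, which carries a BH3 domain and acts in autophagy, rose 1.82-fold and 2.17-fold (adjusted p = 4.46e-05 and 3.66e-06). BBC3 had no probe set naming it alone and was not analysed here.

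Downstream of the family, 16 of 18 genes of caspases, the apoptosome and mitochondrial factors were tested. At 24 h 1 rose and 3 fell, and at 48 h 5 rose and 4 fell (median 0.04 and 0.10), or 25% and 56.2% called. CASP2, a caspase linked to stress and DNA damage, rose 2.08-fold and 1.99-fold, in all 7 of its probe sets by sign. At 24 h DFFA, which holds the apoptotic nuclease in check, fell by 0.51 and the initiator CASP9 by 0.39 (adjusted p = 0.0189 and 0.025). Both calls were lost without single arrays, DFFA's without control replicate 1 or Aa replicates 2 or 3 (adjusted p = 0.0543 to 0.0786), and that of CASP9 without control replicates 2 or 3 or Aa replicates 1 or 3 (adjusted p = 0.0571 to 0.0917). At 48 h the executioner CASP6 fell by 0.98 (adjusted p = 6.44e-06) and the nuclease gene DFFB was at least 2.28-fold lower, with 1 Aa array under log2 4 and overlapping groups (adjusted p = 0.00784). The 24 h count of 4 fell to 2 without control replicate 1, control replicate 3, Aa replicate 2 or Aa replicate 3, and was 9 with the replicate block and 7 with an intensity trend and robust variance.

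Of the inhibitors of apoptosis proteins, which block caspases or caspase-activating complexes, 6 of 7 were tested. At 24 h 3 rose and 1 fell, and at 48 h 3 rose and 2 fell (median 0.23 and 0.20), or 66.7% and 83.3% called, and with hybridisation-control scaling 2 were called at 24 h. NAIP was at least 5.16-fold higher at 24 h and at least 3.91-fold at 48 h, with 1 control array under log2 4 each time (adjusted p = 7.93e-05 and 0.000248). BIRC7 fell by 1.03 and 1.15 (adjusted p = 0.0169 and 0.00672), the former lost without control replicate 1 or Aa replicates 1 or 2 (adjusted p = 0.0614 to 0.0686). BIRC5, or survivin, which also acts in mitosis, had a change of 0.03 at 24 h (adjusted p = 0.921) and rose 2.12-fold at 48 h (adjusted p = 0.000433). BIRC6 rose 1.43-fold and 1.21-fold. With hybridisation-control scaling BIRC6 passed at neither time (0.24, adjusted p = 0.148, and -0.16, adjusted p = 0.284). Its 48 h call was also lost with the mean of probe sets (adjusted p = 0.121) or only the 48 h groups in the fit (adjusted p = 0.0638). The same held without control replicate 1 (adjusted p = 0.051) or Aa replicate 2 (adjusted p = 0.0639).

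Of 14 death receptor genes 11 were tested. At 24 h 4 rose and 2 fell, and at 48 h 3 rose and 4 fell (median 0.10 and -0.22), or 54.5% and 63.6% called. TNFRSF10D, a decoy receptor for the death ligand TRAIL, rose 3.48-fold and 11.9-fold (adjusted p = 6.09e-07 and 2.7e-09), and TNFRSF10A, a signalling TRAIL receptor, rose 2.16-fold and 2.41-fold (adjusted p = 0.000155 and 3.25e-05). CFLAR, which blocks caspase 8, fell by 1.41 and 1.58 in the probe set used, while only 4 and 5 of its 12 tested probe sets had that sign, so its direction is uncertain. FASLG passed in the upward direction but lay near log2 4 in Aa cells and under it in all control cells. The 24 h count of 6 fell to 3 without Aa replicate 3.

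Of 13 upstream transcription factors 9 were tested. At 24 h 5 rose and 1 fell, and at 48 h 4 rose and 3 fell (median 0.60 and 0.30), or 66.7% and 77.8% called. JUN, an AP-1 subunit, rose 3.13-fold and 6.05-fold (adjusted p = 4.34e-05 and 8.72e-07). E2F1, a cell cycle factor, rose 2.54-fold and 4.54-fold (adjusted p = 0.000722 and 1.34e-05), and DDIT3, which encodes the stress factor CHOP, 2.87-fold and 2.15-fold (adjusted p = 6.15e-05 and 0.000346). DDIT3 also rose by 1.12 from 24 h to 48 h in control cells (adjusted p = 0.0378). MYC fell by 0.75 and 1.20 (adjusted p = 0.00121 and 2.78e-05).

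The 13 binding and turnover partners were all tested. They include the 14-3-3 genes, whose proteins hold BAD, the dynein light chains, which hold BIM and BMF, and ligases and a deubiquitinase that set the lifetime of MCL1 or BIM. At 24 h 1 rose and 1 fell, and at 48 h 3 rose and 2 fell (median -0.03 and -0.05), or 15.4% and 38.5% called. The ligase gene BTRC fell by 0.72 and 1.77 (adjusted p = 0.00863 and 1.23e-05), and the 14-3-3 gene YWHAG rose 1.30-fold and 1.23-fold (adjusted p = 0.00403 and 0.011). With hybridisation-control scaling YWHAG passed at neither time (0.1, adjusted p = 0.564, and -0.14, adjusted p = 0.392). The 14-3-3 gene YWHAH rose 2.20-fold (adjusted p = 0.000427) and the dynein light chain gene DYNLL1 1.93-fold (adjusted p = 1.06e-05) at 48 h. The deubiquitinase gene USP9X, whose product spares MCL1 from degradation, fell by 0.88 at 48 h (adjusted p = 0.000359), and is named after its value was seen. The 24 h count of 2 was 5 with the replicate block (2 up, 3 down), 4 without control replicate 3 or with hybridisation-control scaling, 5 with the mean of probe sets and 8 with the probe set of largest interquartile range, and the 48 h count of 5 was 8 to 10 with the other probe set rules or hybridisation-control scaling.

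**Figure D4:**
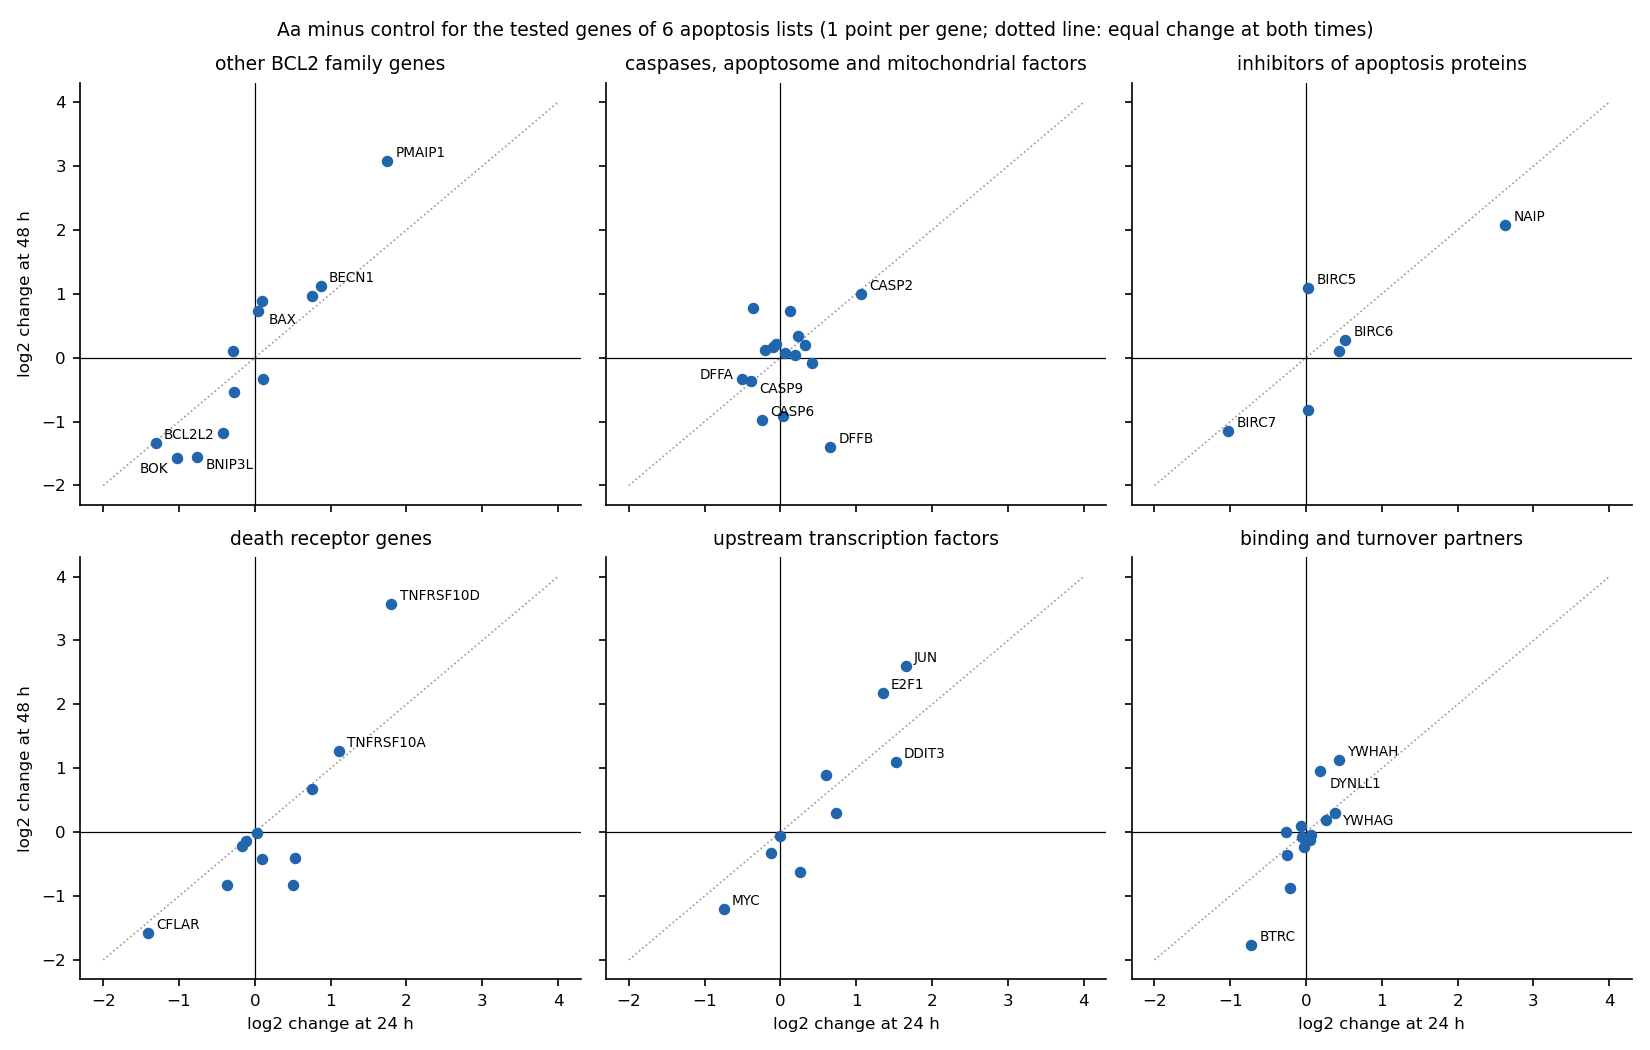
Log2 change, Aa minus control, at 24 h (x axis) against 48 h (y axis) for the tested genes of 6 apoptosis lists, with 1 point per gene, names for genes picked by rule, and a dotted line of equal change. PMAIP1 and TNFRSF10D lie above the line, with changes of 3.08 and 3.57 at 48 h, and BNIP3L and BTRC lie below it.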

How the data were processed

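Total RNA of 12 HK-2 samples was labelled with biotin and hybridised to Affymetrix arrays, per the labels' protocols. Values were deposited on a log2 scale after GCRMA, the only tool in the submitters' processing notes, where neither its version nor the set of arrays normalised together appears. Array medians ran from 2.91 to 3.02, under the level required for testing. They therefore describe probe sets near background, and do not show whether the expressed transcripts shifted together. Scaling to the hybridisation controls lowered each change of Aa from control by 0.28 at 24 h and 0.44 at 48 h. Whether this offset reflects a shift common to most transcripts was not tested. The number of arrays limits the precision.

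In the platform annotation 41091 probe sets named 1 gene, 1801 several and 11721 none, beside 62 controls. The probe set with the highest mean stood for a gene. Genes over log2 4 on at least 3 arrays were tested, 11184 in all, with limma 3.58.1 in R 4.3.3 (lmFit, eBayes, 4 group means, 8 residual degrees of freedom) and Benjamini-Hochberg adjustment over all of them. All 23727 probe sets over the same filter were fitted likewise. The fit was also run on simulated data with independent noise and few changed genes. Those data lacked the pairing and the large share of changed genes found here. They therefore do not show how the fit performs on these arrays. Where arrays of the dimmer group lay under log2 4, those arrays entered a fold at log2 4.

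The members, the lists and the rule for named genes were chosen with earlier results of these data known. The rule took all members, BAX, BBC3, PMAIP1, up to 3 called genes per list and time by size of change, and the 3 genes most correlated with the member of smallest p at 48 h in each class. USP9X was named after its value was seen. Same-numbered samples of different groups deviated together (correlations 0.279 to 0.577 for 18 pairs, against -0.371 to -0.0286 for 36 others), so the numbers paired the samples. The main fit, with its SEs and p-values, left this pairing out, and a fit with the replicate number as a block was an alternative. Other alternatives were quantile normalisation, equal array medians, scaling to 18 hybridisation control probe sets, other filters, a floor, other probe set rules, a variance trend, fewer groups and leaving out each sample. Promoters came from a RefSeq table (GRCh38.p14). Gene spans came from RefSeq's gene table, and no coordinates but those of promoters were used.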

Additional observations from a re-analysis of the deposited data

Results flagged for a closer look

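The change between Aa and control differed between 24 h and 48 h, by the interaction contrast in limma, for 1 member and 10 of the other genes named here, in a design where 19.5% of all genes did so. BIK rose by 0.89 at 24 h and 2.52 at 48 h, a difference of 1.63 (SE 0.193, adjusted p = 0.000893). PMAIP1 rose further by 1.33 (SE 0.325, adjusted p = 0.0193), TNFRSF10D by 1.77 (adjusted p = 0.000206), BIRC5 by 1.06 (adjusted p = 0.0217), JUN by 0.95 (adjusted p = 0.0334) and DYNLL1 by 0.77 (adjusted p = 0.00597). In the other direction the difference between the times was -2.06 for DFFB (adjusted p = 0.0256), with 1 Aa array under log2 4 at 48 h (with a floor at log2 4, the changes were 0.66 at 24 h and -1.19 at 48 h and the difference -1.84, adjusted p = 0.0184), -1.05 for BTRC (adjusted p = 0.0222), -0.79 for BNIP3L (adjusted p = 0.0184), -0.68 for USP9X (adjusted p = 0.0468) and -0.74 for CASP6 (adjusted p = 0.00604). For BTRC the difference turned to 0.02 (adjusted p = 0.968) with the probe set of largest interquartile range. Leaving out single samples ended this call for USP9X (10 of 12 samples, adjusted p up to 0.105), JUN (7 of 12, up to 0.0799), DFFB (5 of 12, up to 0.0582), BIRC5 (4 of 12, up to 0.0551) and BTRC (4 of 12, up to 0.0548). Those of BIK, PMAIP1, TNFRSF10D, BNIP3L, CASP6 and DYNLL1 held without any 1 sample. With hybridisation-control scaling those of JUN, DYNLL1 and USP9X were lost (adjusted p = 0.0783, 0.0632 and 0.0505). With the probe set of largest interquartile range those of BNIP3L and JUN were lost (adjusted p = 0.116 and 0.389). Without a filter on low values those of JUN, DFFB and USP9X were lost (adjusted p = 0.0669, 0.0642 and 0.0772). That of USP9X was also lost with quantile normalisation (adjusted p = 0.0687), and that of BTRC with the mean of probe sets (-0.35, adjusted p = 0.45). Groups of 3 arrays are too small for the test of single outlying samples.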

How the results depend on the processing

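Of 226 values of the counts and class medians under the alternatives, 185 stayed within 1.5 times the count or within the spread of the replicates. The calls of BCL2, at both times, and of BIK, at both times and between times, held in every alternative run, and so did those of MCL1 at 48 h and BID at 24 h. However, no alternative took BCL2 probe set 207004_at by itself, which was not called at either time. BIK has a single probe set, so the probe set rules could not put another in its place. In the comparison at 48 h 5 members passed with hybridisation-control scaling (1 up, 4 down), and the genes called at 24 h then split into 1668 up and 3860 down in place of 2942 and 2550, and at 48 h into 1808 and 5889 in place of 3423 and 3787. Between the times 3 members passed with the replicate block, 2 with a floor at log2 4 and 2 with the mean of probe sets, in place of 1, and 1 to 3 with 1 sample left out. The genes called there were 4314 with the block, in place of 2179, and 1241 to 2597 with 1 sample left out. Between the control times 1 member passed with the block and 2 with hybridisation-control scaling, in place of 0. The genes called there were 71, and 1669 with the block, 1945 with hybridisation-control scaling, 141 with the floor, 27 with the probe set of largest interquartile range, 146 with a variance trend, 0 with only the control groups in the fit, and 9 to 545 with 1 sample left out (545 without control replicate 3 at 48 h). Member probe sets called at 24 h numbered 5 to 8 with 1 sample left out. The replicate block gave 6 members at 24 h and 4 at 48 h, in place of 4 and 3, and changed no member's call beyond those named with the results.

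The protective median over all 4 members at 24 h was -0.67 with hybridisation-control scaling, -0.64 with the mean of probe sets, -0.96 with the probe set of largest interquartile range, and -0.50 to -0.28 with 1 sample left out. At 48 h it was -0.87, -0.58, -1.08, and -0.60 to -0.36. Over the 3 tested members alone it was -0.48 at 24 h and -0.82 at 48 h, the changes of MCL1. This alternative, which leaves out BCL2A1, was chosen after seeing the data. The pro-apoptotic median was -0.02 at 24 h and -0.25 at 48 h with hybridisation-control scaling, and 0.39 at 48 h with the probe set of largest interquartile range. BCL2L11 at 48 h turned to 0.32 with the mean of probe sets and 0.89 with the probe set of largest interquartile range. CFLAR turned to 0.36 at 24 h with the mean of probe sets, and to 3.98 and 2.84 with the probe set of largest interquartile range. BIRC6 and YWHAG at 48 h turned to -0.16 and -0.14 with hybridisation-control scaling, and BTRC between the times to 0.02. The cause of the other moves was not tested.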
